A study of Rattus norvegicus with 6 samples.

Results

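The 252 transcribed loci described here are the abundant part of the BGI_novel rows, which the authors' tables hold beside the genes with an Entrez identifier. A row was taken when its identifier began with BGI_novel and its expected counts, the authors' estimated reads per gene, summed to at least 6000 over the 6 libraries. This left 252 of 3761 BGI_novel loci, in a table of 17172 rows of which 13411 carry an Entrez identifier. The lowest locus inside was G000728 with 6060 summed counts, matched to G patch domain-containing protein 8, and the highest outside was G001442 with 5973, matched to dedicator of cytokinesis protein 5. Identifiers are shortened to their last part, so that G003069 stands for BGI_novel_G003069. Another 5 loci were left out by the name of their protein match, and the highest of these had 2317 summed counts. The counts chose the loci, so their abundance is a description; the comparison of treatments was not used in the choice.

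The libraries came from bone marrow c-kit+ cells of ACI rats aged 6 to 8 weeks. In the PHZ group 3 rats received 100 mg/kg phenylhydrazine into the peritoneum, and in the PBS group 3 rats received the same amount of saline buffer; marrow was taken 36 h later. Phenylhydrazine oxidises haemoglobin and lyses red cells, and the marrow answers the anaemia by making more erythroblasts. The c-kit receptor marks blood stem cells, progenitors and mast cells; the cells were pulled out with a biotin-labelled antibody and magnetic particles, without a sort on other markers, so mature cells can remain. Each library was made from poly(A) RNA of 1 rat.

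A transcript assembler reports a locus as unannotated when the reads fall outside the gene models it was given. Such a locus can be a known gene that the gene list lacked, an extra piece of a listed gene such as a long end, or a copy such as a processed pseudogene. Protein names here come from the authors' match of each locus to the Nr protein database, and the files give neither the position nor the sequence of a locus. Every one of the 252 loci had an Nr match, against 80 of the 3761 BGI_novel loci that had none. A rat protein was the match for 155 loci and a protein of a Mus species for 39, and 164 descriptions were marked as predicted. Each locus held 1 transcript, of 412 to 19062 bases with a median of 4372.5.

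The names could be tied to a gene symbol for 216 loci, 201 of them by the Nr Description and 15 only by the authors' Kegg Orthology column. These are 195 different symbols. Of the 216 loci, 163 name a gene (147 symbols) that has no Entrez row in the files, among them E2f2, Epb41, Cd79a, Myb, Polr2a, Chd4, Blm and Eif4g1. The other 53 loci stand beside a listed Entrez gene of the same symbol. The remaining 36 loci have a name that fits a family, a copy or no known protein. In the Entrez rows 14223 of 24907 transcripts carry an NM_ accession, the curated class of RefSeq, 10684 are BGI_novel transcripts and 0 carry an XM_ accession, the class of predicted models.

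Where a symbol has a RefSeq promoter on the GRCr8 build, the bases around its start site can be read, although the submitters' processing notes name rn6, another build. The windows of Ncapd2, Ncapg, Rcc2 and Atad5 are shown. Loci of those names rose with PHZ and encode proteins of chromosome replication and division, and their windows hold words of the kinds below. The Ncaph locus also rose, but its window holds none of the words and is not shown. Each window shown is written in the direction of the gene, from 250 bases before the start to 50 after it. Capitals mark 3 kinds of word, searched on both strands: CCAAT, the site of the factor NF-Y; TTTGAA or TTCGAA, the core of the cell cycle homology region; and the E2F words TTTCCCGC, TTTCGCGC, TTTGCCGC and TTTGGCGC. A word on the other strand reads as its reverse complement, such as ATTGG for CCAAT.
Ncapd2, chr4:159677889-159678188, minus strand: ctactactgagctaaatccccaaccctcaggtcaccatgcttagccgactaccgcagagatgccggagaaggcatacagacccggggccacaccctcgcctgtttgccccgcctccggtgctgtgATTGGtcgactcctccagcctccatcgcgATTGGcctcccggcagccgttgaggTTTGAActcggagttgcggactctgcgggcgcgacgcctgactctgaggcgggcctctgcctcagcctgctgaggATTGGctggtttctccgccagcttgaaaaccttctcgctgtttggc
Ncapg, chr14:69645396-69645695, minus strand: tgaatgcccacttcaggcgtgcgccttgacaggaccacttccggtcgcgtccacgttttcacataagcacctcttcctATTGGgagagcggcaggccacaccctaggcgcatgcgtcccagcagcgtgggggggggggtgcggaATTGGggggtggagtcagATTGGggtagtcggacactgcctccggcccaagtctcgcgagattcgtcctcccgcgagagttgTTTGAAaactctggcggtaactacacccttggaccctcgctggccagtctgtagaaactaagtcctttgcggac
Rcc2, chr5:158277226-158277525, plus strand: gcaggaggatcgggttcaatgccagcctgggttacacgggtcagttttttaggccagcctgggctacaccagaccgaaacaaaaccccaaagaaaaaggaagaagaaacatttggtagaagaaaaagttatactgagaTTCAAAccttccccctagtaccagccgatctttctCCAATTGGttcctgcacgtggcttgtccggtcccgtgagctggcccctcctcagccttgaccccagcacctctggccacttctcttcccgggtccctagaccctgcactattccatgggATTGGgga
Atad5, chr10:65568322-65568621, plus strand: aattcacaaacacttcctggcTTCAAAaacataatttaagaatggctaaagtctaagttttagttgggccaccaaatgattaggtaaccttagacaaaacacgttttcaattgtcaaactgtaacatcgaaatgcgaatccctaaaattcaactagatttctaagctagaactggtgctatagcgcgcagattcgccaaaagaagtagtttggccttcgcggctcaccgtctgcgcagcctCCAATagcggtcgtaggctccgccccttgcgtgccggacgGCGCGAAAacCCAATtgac

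The Ncapd2 and Ncapg windows each held 3 CCAAT words and 1 TTTGAA word. The Rcc2 window also held 3 and 1, and 2 of its CCAAT words overlap each other on opposite strands. In the Atad5 window there were 2 CCAAT words, 1 TTTGAA word and 1 E2F word. The Ncaph window held none of these words. Of the 8 DNA replication, repair and mitosis symbols with a window, 6 held a CCAAT word and 5 a TTTGAA or TTCGAA word, against 37.5% and 19.7% of 33469 promoters of the same length. An E2F word was in 2 of the 8 windows, those of Atad5 and Nipbl, against 2.14% of all promoters. The Nipbl locus was not called. Of the 5 symbols whose loci were called, 4 held a CCAAT word, 4 a TTTGAA or TTCGAA word and 1 an E2F word. These matches describe letters and do not show binding.

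Libraries held 13196249 to 19492793 expected counts. Levels are given as CPM, expected counts scaled to a common library size: by the TMM factors for loci and genes, and by the plain library total for sums over marker lists. The abundant loci took 4.61%, 3.83% and 4.13% of the counts in PHZ replicates 1 to 3, against 4.59%, 4.32% and 3.82% in PBS replicates 1 to 3. The mean share was 4.19% ± 0.397 in PHZ and 4.25% ± 0.393 in PBS (SD, n = 3 each). The difference of -0.0579 percentage points was within the spread of either group (two-sided exact permutation test, p = 1; 3 against 3 cannot go below 0.1). Expression of Y-linked genes went against the sex label in 3 of the 6 libraries, PHZ replicate 3 and PBS replicates 1 and 2, so sex as labelled is not a safe covariate. PBS replicate 1 stood apart in stromal and endothelial marker RNA, with summed levels of 29.4 to 62.7 CPM in PHZ libraries, 717 in PBS replicate 1 and 85.0 and 95.8 in the other PBS libraries. Nothing in the labels says more of how the RNA was handled than 1 rat per library, so p-values measure the spread between these rats.

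Of the 252 loci, 31 changed with PHZ: 26 were higher and 5 lower. The test was edgeR's quasi-likelihood test on the whole table, with Benjamini-Hochberg adjustment over 13547 genes and a threshold of 0.05. That is 12.3% of the loci, against 13.2% of all genes tested; the share called higher was 10.3% against 8.99% of all genes, and the share called lower 1.98% against 4.17%. The share called at all and the share called higher are near the background. The share called lower is below it in this fit, but this depended on the setting. Of the loci called, 83.9% were higher in this fit, 65.4% with DESeq2 and 64.4% without PBS replicate 1. For all genes called these shares were 68.3%, 55.1% and 58.7%. Entrez genes with at least 6000 summed counts were called more often, 22% of 2863. The median log2 fold change, PHZ over PBS, was 0.07 for the loci and -0.04 for all genes. PHZ and PBS libraries did not overlap at 97 of the 252 loci (38.5%), against 41.7% of all genes tested. The median spread within groups, as an SD of log2 CPM, was 0.307 for the loci, 0.207 for the abundant Entrez genes and 0.27 for all genes. Of the 31 loci, 29 were still called without PHZ replicate 1, 24 without PBS replicate 1, 9 without PHZ replicate 3 and 7 without PHZ replicate 2. Without PBS replicate 2 or without PBS replicate 3 none of the 252 loci was called, and without the 3 libraries whose sex label failed none was. All 31 kept their direction under every alternative tried. At all 31 the PHZ and PBS libraries did not overlap, so leaving out libraries could hardly turn a direction. The kept directions are therefore no added support for the calls.

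**Figure D1:**
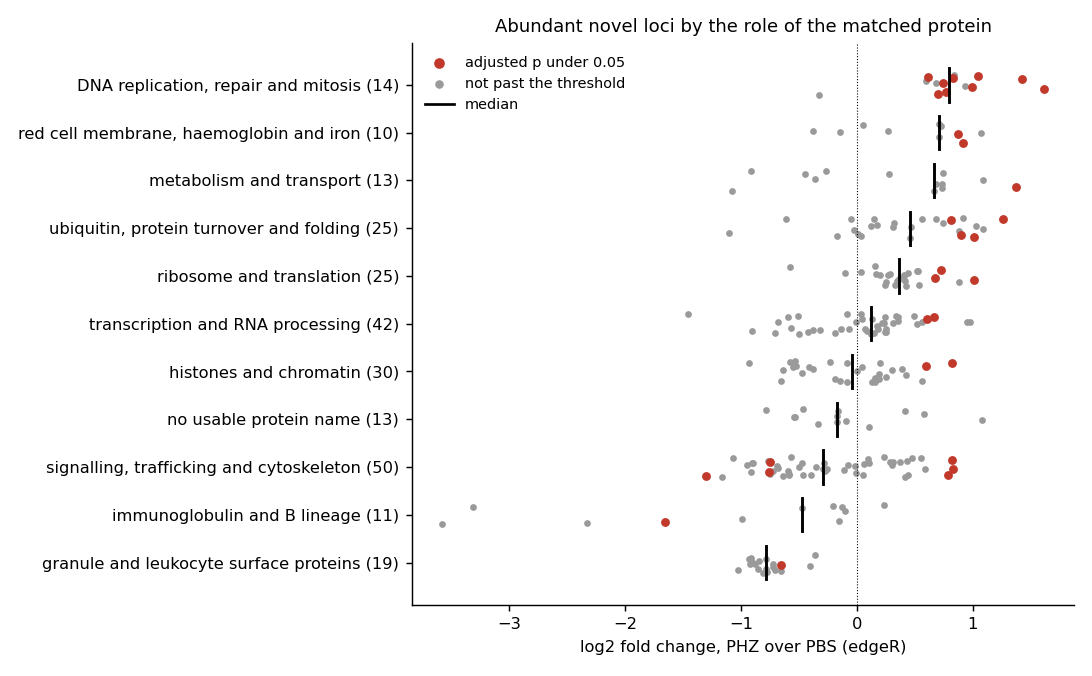
Log2 fold change (PHZ over PBS, edgeR) on the x axis for each of the 252 loci, grouped down the page by the role of the matched protein with the number of loci in brackets; red points passed the adjusted threshold and black bars are medians. The medians are highest for DNA replication, repair and mitosis (0.80) and lowest for granule and leukocyte surface proteins (-0.78).

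In DNA replication, repair and mitosis, 9 of 14 loci rose and none fell, against 8.99% and 4.17% of all genes tested. The median log2 fold change of the group was 0.80. The groups of proteins were drawn up after the descriptions had been read, so their counts are descriptions without a test. The locus matched to ribonucleotide reductase M2 (G003069), the small subunit of the enzyme that makes deoxynucleotides, had 339, 341 and 243 CPM in PHZ libraries, against 119, 83.8 and 97.8 CPM in PBS libraries. The lowest PHZ library was above the highest PBS library by a wide margin. Its log2 fold change was 1.62 ± 0.20 (SE), a 3.07-fold rise with an adjusted p of 0.0169 by edgeR, the steepest rise among the loci called. Bloom syndrome protein (G000255), the helicase that resolves recombination intermediates, averaged 158 ± 19.5 CPM in PHZ and 58.6 ± 2.69 CPM in PBS (SD, n = 3 each). That is a 2.69-fold rise with an adjusted p of 0.0154 by edgeR.

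ATAD5 (G000669), which takes the sliding clamp PCNA off replicated DNA, had 107, 89.9 and 100.3 CPM in PHZ libraries and 49.6, 46.0 and 48.4 CPM in PBS libraries. ESCO2 (G001440), which acetylates cohesin in S phase, had 87.5, 120 and 107 CPM in PHZ libraries and 59.5, 45.4 and 53.4 CPM in PBS libraries. Both were close to 2-fold higher, with log2 fold changes of 1.05 ± 0.12 and 0.99 ± 0.17 (SE).

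Condensin, the ring complex that compacts mitotic chromosomes, was represented by 3 loci, and all 3 rose. Condensin complex subunit 1 (G002734, Ncapd2) averaged 298 ± 49.2 CPM in PHZ and 167 ± 11.5 CPM in PBS. Condensin complex subunit 3 (G001316, Ncapg) averaged 108 ± 4.76 CPM in PHZ and 66.2 ± 4.75 CPM in PBS. The third, G002467, is named Ncaph only by its Kegg Orthology entry, and averaged 147 ± 25.1 CPM in PHZ and 86.4 ± 5.07 CPM in PBS. Their folds were 1.78, 1.63 and 1.70, in that order, and none of these 3 genes has an Entrez row in the files.

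E2F8 (G000226), an atypical E2F that represses cell cycle genes, rose 1.67-fold, and RCC2 (G002995), a regulator of chromosome alignment, rose 1.53-fold. E2F2 (G002979), an activating E2F with known roles in erythroblast division, was the most abundant locus of the group, with 52120 summed counts. It had 470.5, 936 and 704 CPM in PHZ libraries and 404, 340 and 363 CPM in PBS libraries, and missed the threshold with an adjusted p of 0.0588 by edgeR. The groups do not overlap at E2F2, but the PHZ values spread over a wide range. The one locus of the group with an estimate below 0 was Nipped-B homolog (G002018), a cohesin loader, at -0.33 ± 0.46 (SE). In bulk RNA like this, more cells of a dividing type and more RNA per cell cannot be told apart.

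**Figure D2:**
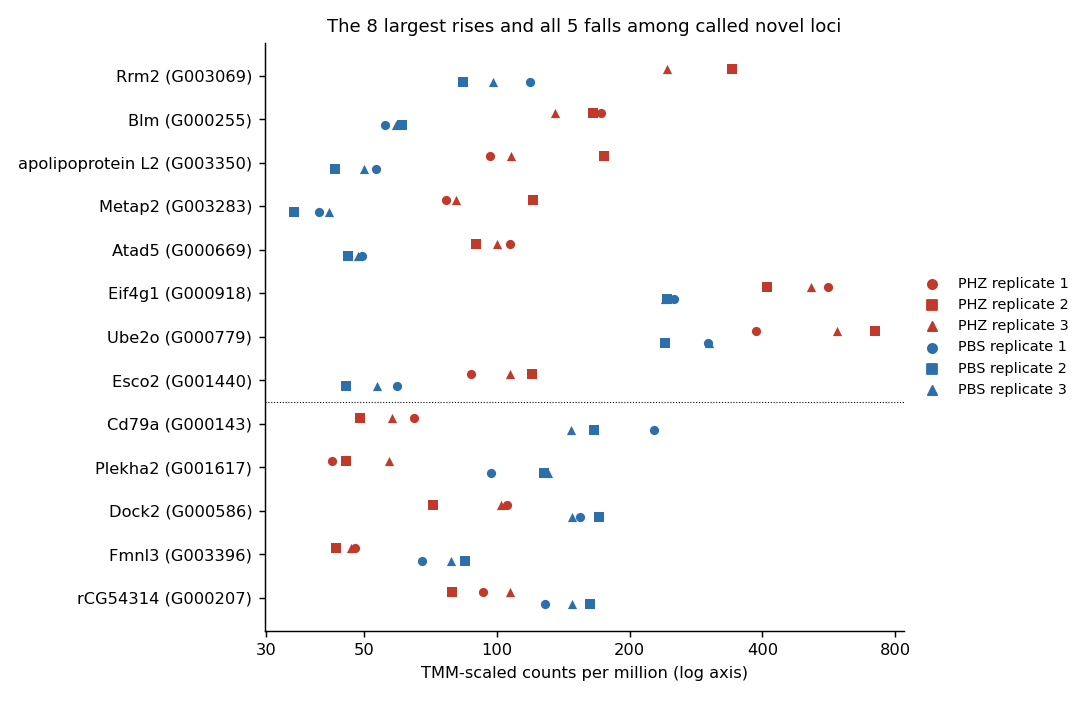
TMM-scaled CPM in each library (log axis) for the 8 largest rises among the called loci, above the dotted line, and all 5 loci that fell, below it; PHZ in red above PBS in blue, with 1 symbol shape per replicate. At each of the 13 loci the 3 PHZ libraries lie on one side of the 3 PBS libraries. The loci were chosen as called in these same libraries. The groups did not overlap at any of the 31 called loci, nor at 41.7% of all genes tested.

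Red cell proteins made up 10 loci, of which 2 rose, none fell and 8 did not pass, where 8.99% of all genes tested rose. Protein 4.1 ties the spectrin and actin skeleton of the red cell to its membrane, and 2 loci carry its name. The smaller, G002968, had 298, 475 and 380 CPM in PHZ libraries and 229, 181 and 219 CPM in PBS libraries. It rose 1.84-fold, with an adjusted p of 0.0403 by edgeR. The larger, G002969, had a log2 fold change of 0.71 ± 0.25 (SE) and an adjusted p of 0.098. TMEM14C (G001227), a mitochondrial membrane protein needed for haem synthesis, rose 1.89-fold. The listed Entrez gene Tmem14c, with 32519 summed counts against 6527 for the locus, moved with it at a log2 fold change of 0.90.

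Erythroid membrane-associated protein, a surface protein of red cell precursors that carries the Scianna blood group antigens in humans, was split over 3 loci. None was called; their log2 fold changes were 0.73, 1.07 and 0.27. Summed, the 3 loci had 480, 622 and 670 CPM in PHZ libraries and 393, 323 and 343 CPM in PBS libraries. The sums did not overlap, as was so at 41.7% of all genes tested. The 2 loci named for haemoglobin beta-2 were lower in their estimates, at -0.14 and -0.38, and neither passed. Ferritin light chain 1 (G000215), an iron store, had 1075, 1286 and 885 CPM in PHZ libraries and 1236, 932 and 952 CPM in PBS libraries, which overlap. Beside these loci, 7 of 11 erythroid marker genes with an Entrez row rose and none fell, with a median log2 fold change of 1.23. Of all genes tested, 8.99% rose. The globin genes Hba1 and Hbb, with log2 fold changes of 0.20 and 0.14, did not pass. The summed level of the erythroid markers was 89120, 213880 and 157697 CPM in PHZ libraries and 115472, 97769 and 194775 CPM in PBS libraries, which overlap.

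Translation accounted for 25 loci, 19 of them named for ribosomal proteins, 2 of these only by Kegg Orthology. Here 3 rose: eIF4G1 (G000918), the scaffold that brings the ribosome to capped mRNA, LARP1 (G000608), which binds mRNAs of ribosomal proteins, and eIF5A (G001845), which helps ribosomes past difficult peptide bonds. The eIF4G1 locus ranked 21 among the loci by summed counts, with 563, 410 and 515 CPM in PHZ libraries and 252, 243 and 241 CPM in PBS libraries. It rose 2.02-fold with an adjusted p of 0.0212 by edgeR. LARP1 averaged 334 ± 11.9 CPM in PHZ and 210 ± 12.9 CPM in PBS. None of the 19 ribosomal protein loci was called. The 3 rises among 25 translation loci stand beside 8.99% of all genes tested that rose. Estimates were above 0 at 23 of the 25, with a median of 0.36.

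Protein turnover gave 25 loci, of which 4 rose and none fell, against 8.99% and 4.17% of all genes tested. UBE2O (G000779), a ubiquitin enzyme that clears ribosomal proteins from maturing red cells, had 387, 720 and 590 CPM in PHZ libraries and 301, 241 and 303 CPM in PBS libraries. Its rise of 2.01-fold had an adjusted p of 0.0453 by edgeR. Methionyl aminopeptidase 2 (G003283), which trims the first methionine from new proteins, averaged 92.7 ± 24.1 CPM in PHZ and 38.6 ± 3.53 CPM in PBS. The proteasome adaptor ECM29 (G002866, named Ecpas by Kegg Orthology) also rose. The most abundant locus of this class was TNFAIP3 (G000013), the A20 protein that restrains NF-kappaB signalling. Its level varied widely, with 889, 217 and 530 CPM in PHZ libraries and 649, 1620 and 1250 CPM in PBS libraries, and it did not pass (adjusted p of 0.22 by edgeR).

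Among the other classes, importin-5 (G001496), nucleoporin NUP188 (G002314) and AMMECR1 (G003939) rose within signalling and trafficking. The U5 snRNP component of 116 kDa (G000729) and integrator subunit 3 (G002105) rose within RNA processing. The chromatin proteins ASXL1 (G002495) and SUZ12 (G000668) were the 2 of 30 histone and chromatin loci that rose, against 8.99% of all genes tested. SUZ12 is a core subunit of a Polycomb complex. Apolipoprotein L2 (G003350) had 96.4, 175 and 108 CPM in PHZ libraries and 53.1, 43.0 and 50.05 CPM in PBS libraries. It rose 2.59-fold, with an adjusted p of 0.0238 by edgeR. The second apolipoprotein L2-like locus, G003353, had a log2 fold change of 0.75 and did not pass.

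Of the 5 loci that fell, 4 have a protein name: CD79A, PLEKHA2, DOCK2 and formin-like protein 3. CD79A (G000143), the signalling chain of the B cell receptor, had 65.0, 49.1 and 58.0 CPM in PHZ libraries, against 228, 166 and 147 CPM in PBS libraries. The highest PHZ library was below the lowest PBS library by more than 2-fold. Its log2 fold change was -1.65 ± 0.21 (SE), with an adjusted p of 0.0168 by edgeR. Of the 12 B lineage markers on the list used here, Cd79a was the one without an Entrez row. Of the other 11, 7 fell, against 4.17% of all genes tested, and none rose. The partner of CD79A in the receptor, Cd79b, is a listed Entrez gene and had a log2 fold change of -1.60.

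PLEKHA2 (G001617), an adaptor that binds a product of PI3 kinase, had 42.3, 45.6 and 56.9 CPM in PHZ libraries and 97.0, 128 and 130 CPM in PBS libraries. DOCK2 (G000586), the Rac activator of migrating leukocytes, averaged 93.1 ± 18.8 CPM in PHZ and 158 ± 11.7 CPM in PBS. Formin-like protein 3 (G003396), an actin nucleator, averaged 45.9 ± 2.49 CPM in PHZ and 77.1 ± 8.62 CPM in PBS. Of the 9 T and NK cell marker genes tested, 6 fell, against 4.17% of all genes tested, and none rose. The 9 had a median log2 fold change of -2.08. The 6 that fell had low levels, at most 15.2 CPM in any library, and the more abundant Cd4 and Nkg7 did not pass. The part of these cells in the falls was not tested. The fifth locus, G000207, has the placeholder name rCG54314 and averaged 93.1 ± 14.03 CPM in PHZ and 146 ± 17.2 CPM in PBS.

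Of the 19 granule and leukocyte surface protein loci 1, G000207, fell and 18 did not pass. Of all genes tested, 4.17% fell. The class was drawn up by hand. Its loci G000207 and G000366 have placeholder names that give no role, and G000455 is named for an interferon-induced protein. All 19 estimates lay below 0, with a median log2 fold change of -0.78 against -0.04 for all genes. They include 3 eosinophil cationic protein loci, 2 low affinity Fc gamma receptor loci, PML-RARA-regulated adapter molecule 1, ADAM8 and alpha-defensin 7. The ADAM8 locus (G000359), a surface protease of myeloid cells, had 77.3, 108 and 178 CPM in PHZ libraries and 192, 304 and 240 CPM in PBS libraries. These groups do not overlap, and the adjusted p was 0.084 by edgeR. The summed level of 11 neutrophil markers was 6254, 10420 and 11137 CPM in PHZ libraries and 13430, 27771 and 20326 CPM in PBS libraries; of 10 tested, 1 fell and none rose. The summed level of 8 mast cell, basophil and eosinophil markers was 10779, 5566 and 5969 CPM in PHZ libraries and 15470, 11738 and 10200 CPM in PBS libraries; none of 7 tested passed. The part of these cells in the lower levels of the 19 loci was not tested.

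Immunoglobulin loci were among the most abundant and the least even. The Igh-6 name, for the heavy chain of IgM, was carried by 3 loci, and 2 more were named for the constant region of the Ig gamma-2B chain. The most abundant Igh-6 locus, G003225, had 1956, 277 and 320 CPM in PHZ libraries and 1359, 759 and 726 CPM in PBS libraries. High values were in replicate 1 of each group, and the groups overlap. The Ig lambda locus G000934 had 77.3, 67.2 and 96.9 CPM in PHZ libraries, against 1002, 102 and 107 CPM in PBS libraries, so that 1 library made up most of its signal. The placeholder-named loci G000925 and G002350 stand in this class by Kegg Orthology, which gives the pre-B lymphocyte gene for both. Locus G000925 had 6.12 to 45.7 CPM in PHZ libraries, 949 CPM in the same PBS library and 9.90 and 21.2 CPM in the other PBS libraries. None of the 7 heavy chain loci or of these light chain and placeholder loci was called.

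Without PBS replicate 1 the estimates of 6 of the 11 immunoglobulin and B lineage loci turned from below 0 to above 0, and 2 of the 6, both heavy chain loci, then passed the threshold. The gamma-2B locus G003218 then had 526, 248 and 326 CPM in PHZ libraries against 76.2 and 82.7 CPM in the remaining PBS libraries, with a log2 fold change of 2.21 and an adjusted p of 0.0302 by edgeR. With all 6 libraries its log2 fold change was -0.11 ± 1.04 (SE). Locus G003221, matched to LOC367586 protein, moved in the same manner, with 1.46 without that library and -0.13 ± 0.81 with it. The other 4 turned without passing: the second gamma-2B locus G003219 (1.20 without that library, -0.99 with it), G000925, G002350 and the Igh-6 locus G003225. Locus G003222, above 0 either way, also passed without that library. CD79A had a log2 fold change of -1.45 without that library, lower in PHZ as with it. PBS replicate 1 was the highest PBS library at all 6 loci that turned, so leaving it out raises their estimates. At G003225 the high PHZ replicate 1, with 1956 CPM, was kept. The passes without PBS replicate 1 show the weight of 1 library and do not test a rise with PHZ.

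**Figure D3:**
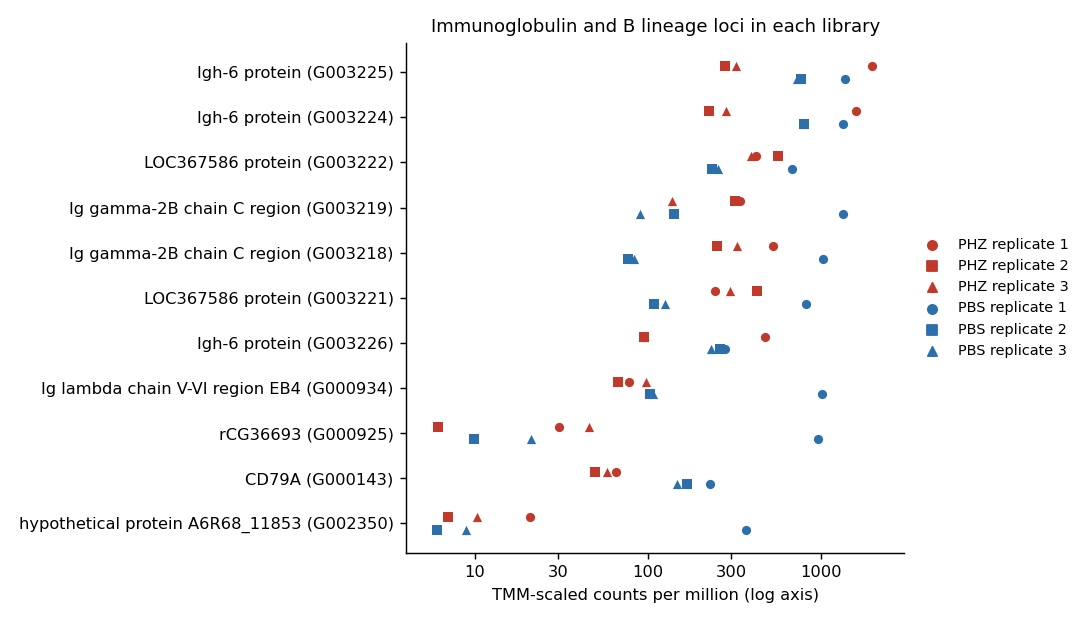
TMM-scaled CPM (log axis) of the 11 immunoglobulin and B lineage loci in each library, PHZ in red above PBS in blue, with 1 symbol shape per replicate. PBS replicate 1 is far to the right of the other libraries at G000934, G000925 and G002350, while CD79A is lower in all 3 PHZ libraries.

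The 53 loci beside an Entrez gene of the same symbol show how counts were divided. The locus held more counts than the Entrez row in 24 cases. For ribosomal protein S14 the locus G001796 had 47355 summed counts and the Entrez row 54, so the locus held 99.9% of the pair. Ribosomal protein S20 (G002997) had 46388 against 38, and triosephosphate isomerase (G002727), a glycolytic enzyme, 19471 against 17. Ribosomal protein L13 (G001928) held 91.7% of its pair, and ribosomal protein L9 (G002295) 97.4%.

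In the other direction, ferritin light chain held 105700 counts at the locus and 339001 at Ftl1, and elongation factor 1-alpha 1 had 2 loci far below the 437631 counts of Eef1a1. Ribosomal proteins, elongation factor 1-alpha, ferritin and cyclophilin have many processed copies in rodent genomes, so how reads were shared among copies is uncertain for these names. Ribonucleotide reductase M2 was nearly even, with 20654 counts at the locus and 28642 at Rrm2. The Entrez row had a log2 fold change of 1.63, beside 1.62 for the locus. Of the 31 called loci, 4 have an Entrez row (Rrm2, Metap2, Tmem14c and Eif5a), and all 4 rows were called in the same direction. Another 25 of the 31 name a gene with no Entrez row, and 2 have no symbol. Where both could be tested, 40 of 49 loci had an estimate of the same sign as the Entrez row. At 6 loci the Entrez row was called and the locus was not. One of them, Tsc22d4 (G001041), had a log2 fold change of 0.25 at the locus and -1.48 at the Entrez row.

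**Figure D4:**
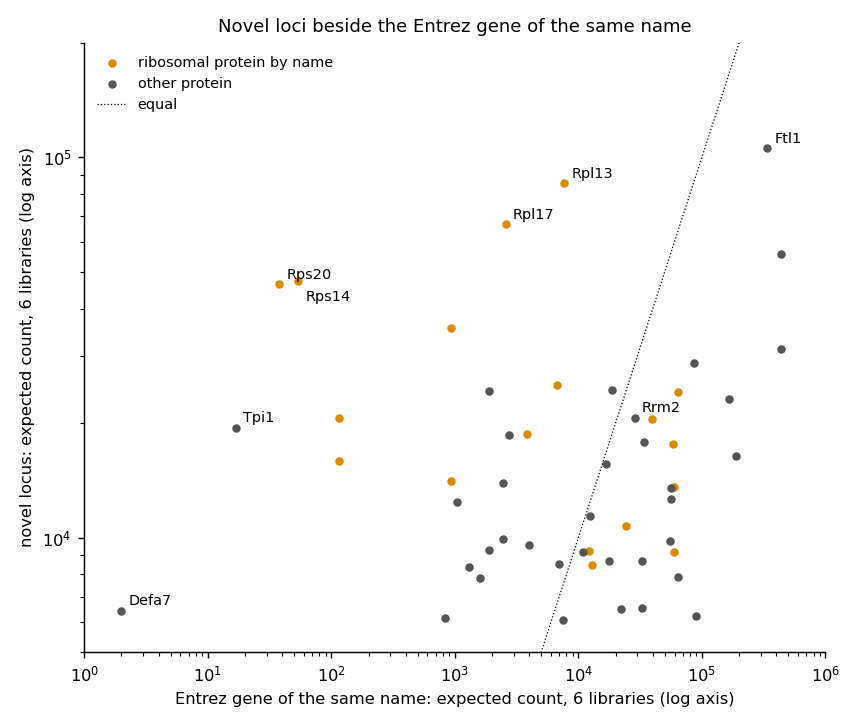
Expected counts summed over the 6 libraries for 53 loci (y axis) against the Entrez gene of the same symbol (x axis), both on log axes, with the dotted line marking equal counts. Ribosomal protein names are orange; Rps14, Rps20 and Tpi1 lie far left of the line because their Entrez rows hold 54, 38 and 17 counts.

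One protein was often spread over several loci. There were 18 symbols with more than 1 locus, and 39 loci between them. Nesprin-1, the giant protein that links the nucleus to actin, had 4 loci, which together held 282, 138 and 304 CPM in PHZ libraries and 323, 556 and 491 CPM in PBS libraries. The summed groups do not overlap, as was so at 41.7% of all genes tested, and none of the 4 was called. The lowest sum was in PHZ replicate 2, in which long loci were low, as given below. The nesprin-1 locus G000045 is 17266 bases long, with 12.8 CPM in that library against 105 and 72.9 CPM in PHZ replicates 1 and 3. Loci with the same match and the same length can be copies that share reads. The 2 loci named for hnRNP A0 had identical expected counts in all 6 libraries. The 2 loci named for histone H1.2 were identical in 5 libraries, and in PBS replicate 1 one had 2445 and the other 6271. The 2 loci named for ribosomal protein L35a had 253 and 51.3 CPM in PHZ replicate 3, and 62.9 and 276 CPM in PBS replicate 2, while their sums stayed between 305 and 405 CPM. Summing such copies left 31 loci called. None of the summed copies was itself among the 31, so this does not bear on shared reads at the called loci.

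The most abundant locus was histone H3.3 (G001215), a variant histone, with 124937 summed counts. It had 1115.5, 1689 and 1429 CPM in PHZ libraries and 1182, 1082 and 1159 CPM in PBS libraries, which overlap. Next came G001190 with 113121 counts, described as retrotransposon-like protein 1 by Nr and as another protein by Kegg Orthology, so it has no usable name. Its PHZ values of 1304.5, 1414.5 and 1171 CPM lay above its PBS values of 862, 1089 and 970 CPM, with an adjusted p of 0.128 by edgeR. Per length, G001190 was first among the loci, with a mean FPKM of 1344 in PHZ and 1049 in PBS. The 12 most abundant loci held 23.7% of all counts on the 252. Among zinc finger loci, the mRNA decay factor Zfp36l2 (G003244) at 0.32, Rlf (G002942) at -0.07 and Zfp106 (G002435) at 0.26 in log2 fold change did not pass.

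Long loci were low in 1 library. In PHZ replicate 2, loci of 6000 bases or more had a median log2 CPM 0.271 below the mean of PHZ replicates 1 and 3, while loci under 2000 bases were 0.287 above it. Of the 73 long loci 37 had their lowest value in that library, against 7 of the 62 short ones. Entrez genes showed the same order, with medians of -0.37 for 655 long and 0.14 for 4117 short genes. The locus G003392, matched to the histone methyltransferase 2D, had 105 and 68.4 CPM in PHZ replicates 1 and 3 and was listed at 0 in PHZ replicate 2. In PBS libraries it had 60.9, 142 and 47.0 CPM. The part of this length trend in the fold changes of long loci was not tested. Globin genes with an Entrez row took 22.02% of counts in PHZ replicate 2, the largest share of any library.

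**Figure D5:**
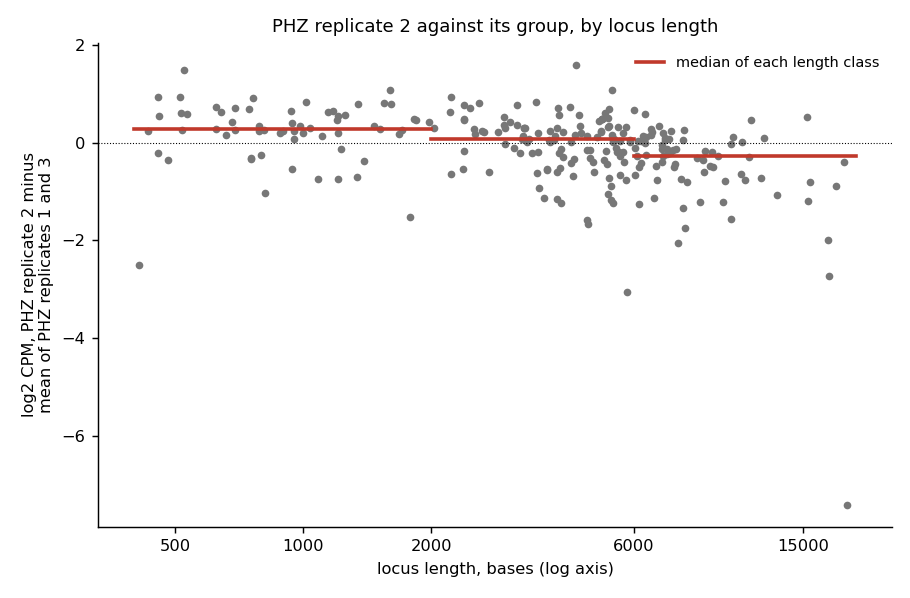
Difference in log2 CPM (with 0.5 added) between PHZ replicate 2 and the mean of PHZ replicates 1 and 3 (y axis) against locus length in bases (log x axis) for 252 loci; red lines are medians of 3 length classes. The medians are 0.287 under 2000 bases, 0.0701 between 2000 and 6000 and -0.271 from 6000.

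In the authors' deposited table of the same comparison 8 of the 252 loci were marked Up (3.17%) and 12 Down (4.76%), and 7 of these 20 were also called here. Of all 17172 rows of the authors' deposited table, 546 were marked Up (3.18%) and 1183 Down (6.89%). Loci that the authors' deposited table marked Down but that did not pass here include TNFAIP3, c-Rel, ADAM8, the Ig lambda locus G000934, and the placeholder-named loci G000925 and G002350. All 20 marked loci had an absolute log2 fold change of 1.003 or more in the authors' deposited table. Calls here had no fold limit, and the smallest called absolute log2 fold change was 0.60. Of the 31 called loci, 7 rose and 2 fell by at least 2-fold. The overlap thus sets unlike thresholds side by side. How the authors set their marks is not given in the sources used here.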

How the data were processed

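RNA-seq of 6 libraries, 3 PHZ and 3 PBS, was used. The authors deposited 1 table per library with expected counts and FPKM per gene, per the file headers; the submitters' processing notes name HISAT, GATK, RSEM and the build rn6, without roles or versions. The deposited comparison table holds a log2 fold change, group mean FPKM and a probability score of unstated method, per the file headers. Expected counts were rounded to whole numbers, joined (an unlisted gene counted as 0) and tested with edgeR (version 4.0.16, R 4.3.3). The fit was a robust quasi-likelihood model with treatment as its only term, after TMM scaling and the filterByExpr filter, with Benjamini-Hochberg adjustment over 13547 genes and a threshold of 0.05. CPM values are TMM-scaled, except for marker list sums. The procedure was tested on simulated counts.

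Alternatives used upper-quartile scaling, no filter, DESeq2 1.42.0, limma 3.58.1 on log2(FPKM + 0.1), labelled sex, a replicate term, other abundance limits and left-out libraries; summing of copies was chosen after seeing the data. The members and marker lists were chosen with earlier results of these data known. Loci named were the 12 most abundant, the 8 largest rises and falls called, the top 3 of each name class, and those set beside an Entrez gene; other loci named were picked after their values were seen. No locus lacked a protein match, so the planned search for genes that resemble such loci had no object. Symbols and roles were assigned by hand from the descriptions. Promoter windows are RefSeq, GRCr8; 153 symbols of the loci had one. Chi-square tests merged no replicates. The biological coefficient of variation was 35.2%. One called locus is counted but not reported here by name.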

Additional observations from a re-analysis of the deposited data

How the results depend on the processing

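Against 31 loci called (26 higher, 5 lower) and 1783 of all genes, DESeq2 called 78 (51 higher, 27 lower) and 3469, and labelled sex as a covariate 25 loci (3 lower) and 928 genes. Limma called 3 loci lower. Without the 3 libraries that failed their sex label 0 loci and 0 genes were called (34 loci and 1480 genes at an unadjusted p under 0.05), and the difference in share of counts was 0.399 percentage points. Leaving out 1 library in turn gave 0 to 56 loci called, 0 to 45 higher, 0 to 16 lower and 0 to 1744 genes. The counts were 7 without PHZ replicate 2, 10 without PHZ replicate 3, and 0 without PBS replicate 2 or PBS replicate 3, where 63 and 66 loci had an unadjusted p under 0.05. The split of higher to lower calls over all genes was 68.3% higher as reported and 58.7% with upper-quartile scaling. Limits of 3000 and 12000 summed counts gave 74 of 587 and 13 of 103 loci called. With the replicate number as a block 0 loci and 0 genes were called, with 109 loci at an unadjusted p under 0.05. Same-numbered libraries deviated together weakly, with correlations of 0.21, 0.06 and 0.005, against -0.17 to 0.15 for libraries of unlike number. The labels do not say whether the numbers pair the rats, and these correlations cannot decide it. Without PBS replicate 1, G003218 and G003221 turned to higher in PHZ and passed, and 4 more immunoglobulin class loci turned without passing; over the left-out libraries the log2 fold changes of the first pair ran from -0.59 to 2.21 and from -0.55 to 1.46. The causes of these changes were not tested. Gene symbols assigned by hand, missing positions and reads shared between copies limit what a locus name means.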
